A study of Mus musculus with 6 samples.

Results

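The spliceosome removes introns from pre-mRNA. It is built from small nuclear ribonucleoproteins (snRNPs), which are RNAs coated with proteins, and is steered by RNA-binding factors, among them SR proteins, which mostly promote the use of an exon, and hnRNPs, which often repress it. At an intron's 3′ end U2AF marks the splice site, SF3A and SF3B hold the U2 snRNP on the branch site, the U4/U6.U5 tri-snRNP then joins, and Prp-family proteins drive the rearrangements that lead to catalysis. In human myelodysplastic syndrome, a clonal marrow disease with faulty blood cell output, the splicing genes SF3B1, SRSF2, U2AF1 and ZRSR2 are mutated recurrently, as is the chromatin regulator ASXL1. The mouse genes described here are those whose symbols start with Srsf, Snrp, Sf3a, Sf3b, Prpf, U2af, Zrsr, Hnrnp or Lsm followed by a number or letter. They were taken from the array's annotation and required a probe set with a single gene symbol. This gave 197 of 45037 probe sets, for 74 of 18193 measured genes, in 8 of the 9 families: 33 for Srsf (10 genes), 18 for Snrp (9 genes), 8 for Sf3a (3 genes), 22 for Sf3b (6 genes), 32 for Prpf (12 genes), 3 for U2af (3 genes), 58 for Hnrnp (19 genes) and 23 for Lsm (12 genes). No probe set with a single symbol fell in the Zrsr family, so Zrsr2 was not analysed here. Another 19 probe sets name a gene of these families together with other genes, among them Snrpd1, Snrpd2, Snrpa, Lsm5 and Hnrnpa3, and were left out.

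RNA of marrow cells was hybridised to Affymetrix mouse expression arrays, 3 from mice transplanted with cells labelled ASXL1-MT (titles BMT-ASXL1Mt) and 3 from mock-transplanted mice (titles BMT-mock). The labels call all 6 samples myeloid marrow cells, describe the ASXL1-MT mice as having a disease like myelodysplastic syndrome and the mock mice as normal controls, and give for the series a magnetic depletion of CD3e-, B220- and TER-119-positive cells, which are T, B and red-lineage cells. They do not give the ASXL1 mutation, the vector, what the mock cells carried, or the strain, age and time after transplantation. They also do not say that the 3 samples of a group are separate mice, so the p-values reflect the spread of these samples alone, and that spread may be technical.

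The deposited values are logs of MAS5 signals, taken as log2 and centred row by row on the median of the 6 arrays. A value of 0 is therefore that probe set's median, levels of different genes cannot be compared, and no marker can be called absent. Each change was computed as the mean of the ASXL1-MT arrays minus that of the mock arrays, and a change of 1 is 2-fold if the log base is 2. Values of a group are given in the order of its arrays 1, 2 and 3. Probe sets are called bright if their 3 highest arrays lie on the coarse rounding step of logs of 8 and above. That is a signal of 256 or more for base 2. Where the groups do not overlap, those 3 arrays are the whole higher group, so the lower group may be dimmer. The other probe sets are called dim. A value near 0 given with few digits can miss the step, so a dim probe set need not have a low signal. Of the 197 splicing probe sets 159 were bright (80.7%), against 38.2% of all probe sets. Changes were tested with limma over all probe sets, with Benjamini-Hochberg adjustment and a threshold of 0.05. Whole marrow fractions were measured, so a change in the number of cells of a type and a change in RNA per cell cannot be told apart.

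Promoters of the 4 genes whose probe sets passed the test over all probe sets are shown because these genes lead the comparison. Each is the RefSeq window of assembly GRCm38.p6 from 250 bases before to 50 bases after the gene's start, read 5′ to 3′ on the gene's strand, and capitals mark matches on either strand to the CCAAT box (CCAAT) or the GC box (GGGCGG). They lie at chr4:136310692-136310991 on the plus strand for Hnrnpr, chr1:178337766-178338065 on the minus strand for Hnrnpu, chr2:180024737-180025036 on the plus strand for Lsm14b and chr7:66060086-66060385 on the plus strand for Snrpa1. Where a gene has several windows, as Hnrnpr does, the first listed is shown.
Hnrnpr: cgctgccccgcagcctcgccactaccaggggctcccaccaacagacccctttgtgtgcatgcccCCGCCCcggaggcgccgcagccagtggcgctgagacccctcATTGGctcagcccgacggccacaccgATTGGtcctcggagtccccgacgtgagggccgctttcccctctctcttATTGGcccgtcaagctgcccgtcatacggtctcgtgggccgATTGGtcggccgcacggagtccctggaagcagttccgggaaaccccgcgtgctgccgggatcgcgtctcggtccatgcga
Hnrnpu: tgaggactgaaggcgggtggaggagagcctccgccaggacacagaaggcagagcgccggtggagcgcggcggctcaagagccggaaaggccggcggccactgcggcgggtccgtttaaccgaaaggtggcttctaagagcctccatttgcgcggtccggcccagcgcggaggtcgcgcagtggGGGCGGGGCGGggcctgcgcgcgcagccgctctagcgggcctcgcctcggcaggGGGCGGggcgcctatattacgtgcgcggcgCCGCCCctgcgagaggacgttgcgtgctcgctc
Lsm14b: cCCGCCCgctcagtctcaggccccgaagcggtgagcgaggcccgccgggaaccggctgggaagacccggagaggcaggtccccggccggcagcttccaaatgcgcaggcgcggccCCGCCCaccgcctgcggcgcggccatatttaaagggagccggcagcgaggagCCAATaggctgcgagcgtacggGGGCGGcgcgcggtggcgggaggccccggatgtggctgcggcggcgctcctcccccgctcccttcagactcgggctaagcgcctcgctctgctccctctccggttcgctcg
Snrpa1: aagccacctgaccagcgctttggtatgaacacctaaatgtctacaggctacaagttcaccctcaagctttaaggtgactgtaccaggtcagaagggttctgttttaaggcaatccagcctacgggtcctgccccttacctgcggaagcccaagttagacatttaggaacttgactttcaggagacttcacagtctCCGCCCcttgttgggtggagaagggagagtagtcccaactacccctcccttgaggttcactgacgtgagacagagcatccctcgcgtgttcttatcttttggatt
The Hnrnpr window held 4 CCAAT boxes and 1 GC box, the Hnrnpu window 4 GC boxes, 2 of them overlapping, the Lsm14b window 1 CCAAT box and 3 GC boxes, and the Snrpa1 window 1 GC box. None of these 4 windows held an E-box (CACGTG), the ETS-type letters CCGGAAG or a TATA box (TATAAA), the other motifs searched, and no match overlapped one of another motif. Windows were found for 64 of the 74 genes. Among the 64, 50.0% held a CCAAT box, against 37.9% of 27025 gene promoters of the same length, 67.2% held a GC box, against 35.9%, and 28.1% held CCGGAAG, against 9.12%. The E-box was found in 9.38%, against 7.24%, and the TATA box in 7.81%, against 14.2%. These matches describe letters and are not evidence of binding.

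Changes of the splicing genes were small, and at an unadjusted p under 0.05 more probe sets were higher than lower in ASXL1-MT marrow. Of the 197 probe sets 5 rose and 0 fell (2.54% rose), against 4.73% of all 45037 probe sets that rose and 3.37% that fell. At an unadjusted p under 0.05 there were 39 higher and 2 lower, against 16.1% and 10.2% of all probe sets. With array medians set equal there were 29 higher and 5 lower, against 13.5% and 12%, after quantile normalization 27 and 8, against 13.1% and 12.3%, and after cyclic loess 23 and 10, against 12.8% and 12.6%. Under these scalings the share that was higher lay near that of all probe sets, and the share that was lower lay below it. The 5 calls were Hnrnpr, by 2 probe sets, Hnrnpu, Lsm14b and Snrpa1. With any single array of the 6 left out, 0 of 197 passed, and calls over all probe sets fell too, to between 0.06% and 1.13% higher and 0.0866% and 1.4% lower. At an unadjusted p under 0.05 these fits had 25 to 37 splicing probe sets higher and 1 to 4 lower, against 11.6% to 14.4% and 8.3% to 10.2% of all. With each gene taken as the mean of its probe sets, 3 of 74 genes rose (4.05%), which were Hnrnpr, Lsm14b and Srsf10, and 0 fell, against 6.63% and 4.75% of all genes.

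The family medians ran from the U2-bound SF3A complex at the top to SF3B at the bottom. The median change was 0.41 for Sf3a, 0.39 for Snrp, 0.30 for Srsf and 0.23 for Prpf. It was 0.14 for Lsm, 0.12 for U2af, 0.064 for Hnrnp and 0.015 for Sf3b. Over all probe sets the median was 0.11, and setting array medians equal took it to 0.024 and that of the 197 splicing probe sets to 0.064, against 0.14 as deposited. The medians of Sf3b and Hnrnp turned negative under quantile normalization (-0.076 and -0.020), cyclic loess (-0.074 and -0.028) and equal array medians (-0.067 and -0.018), whereas those of the other 6 families stayed positive under all 3.

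**Figure D1:**
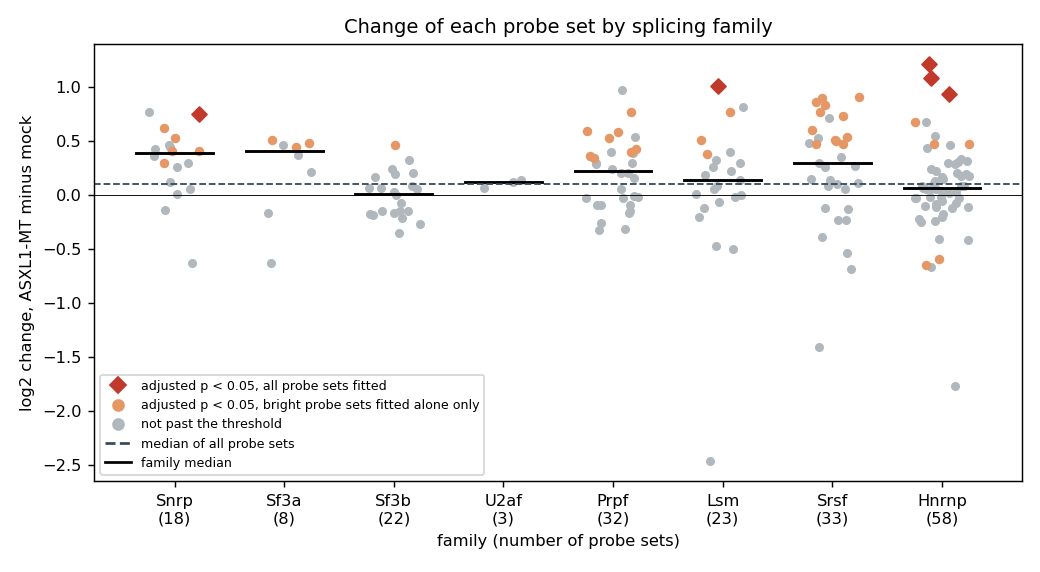
Each point is a probe set, placed by its change on the log2 scale (ASXL1-MT mean minus mock mean, vertical axis) and grouped by splicing family, with a bar at the family median and a dashed line at the median of all probe sets. The 5 calls lie in Snrp, Lsm and Hnrnp, and Sf3b lies around 0.

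The groups did not overlap, with every ASXL1-MT array above every mock array, in 68 of 197 probe sets (34.5%), against 21.7% of all probe sets, and lay the other way round in 14 (7.11%), against 13.7%. Dim probe sets vary more, with a median within-group SD of 0.81 for probe sets that are not bright and 0.18 for bright ones, so bright probe sets were also compared on their own. Among bright splicing probe sets 61 of 159 did not overlap and were higher (38.4%), against 33.4% of all bright probe sets, and 14 were lower (8.81%), against 22%. In a fit to bright probe sets alone 38 of 159 rose (23.9%), against 23.6% of bright probe sets, and 2 fell (1.26%), against 15.8%. The share that rose was therefore near the background and the share that fell was below it. With array medians set equal in the same fit, an alternative chosen after seeing the data, 28 rose and 7 fell, against 19.1% and 18.5% of bright probe sets. The 7 were 2 probe sets of Hnrnpll and 1 each of Sf3b1, Sf3b2, Prpf38a, Hnrnpc and Hnrnph2. Leaving out an array from the fit to bright probe sets left between 16 and 35 calls. The lowest count came without ASXL1-MT array 3, with 16 higher (10.1%) and 0 lower, against 14% and 10.2% of all bright probe sets in that fit. Without ASXL1-MT array 2 there were 20 higher (12.6%) and 3 lower, against 15.3% and 11.5%.

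In bright genes 18 of 69 rose and 1, Hnrnpll, fell, against 27.6% and 16.2% of all bright genes. With the probe set of smallest spread for each gene, 11 of 74 genes rose and 0 fell, against 13.5% and 7.89%. By family, the fit to bright probe sets called 6 of 12 Snrp, 3 of 6 Sf3a, 12 of 30 Srsf, 8 of 25 Prpf, 4 of 16 Lsm, 4 of 49 Hnrnp, 1 of 18 Sf3b and 0 of 3 U2af probe sets higher, and 2 of 49 Hnrnp probe sets lower. Over all bright probe sets 23.6% were called higher and 15.8% lower. With array medians set equal, Srsf had 11 higher, Prpf 4, Hnrnp 4, Snrp 3, Lsm 3, Sf3a 2, Sf3b 1 and U2af 0, against 19.1%. Called lower were then 4 Hnrnp, 2 Sf3b and 1 Prpf probe sets, against 18.5%. Without ASXL1-MT array 3 the Srsf count was 3 and the Snrp count 3, while calls over all bright probe sets also fell.

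**Figure D2:**
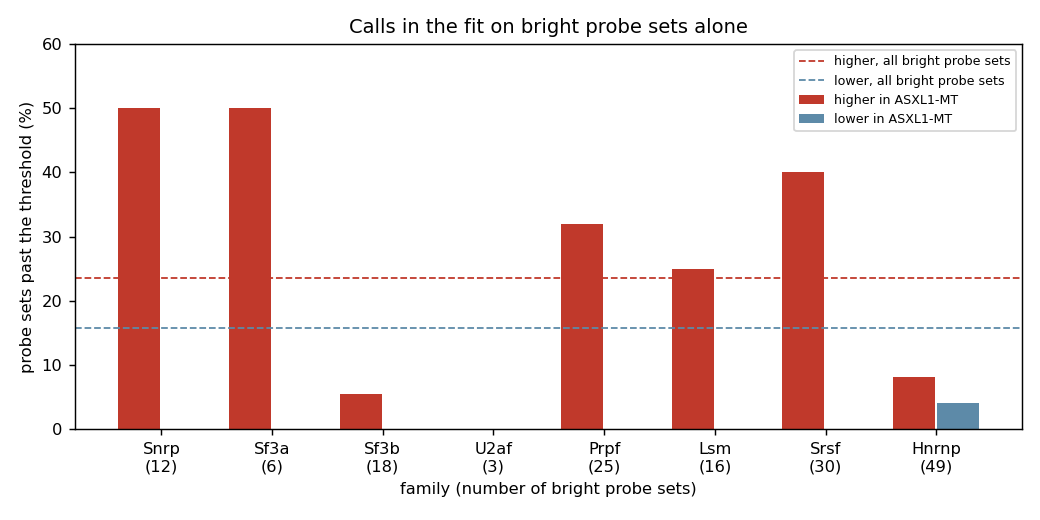
Bars give the percent of each family's bright probe sets called higher or lower in ASXL1-MT marrow when bright probe sets are fitted alone, and dashed lines give the same shares over all bright probe sets (23.6% higher and 15.8% lower). Sf3b, U2af and Hnrnp lie under the line for higher calls, and Hnrnp alone has lower calls.

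The changes of these genes were smaller in size than those of the whole array, which is given as a description with no test. The median absolute change was 0.25 for the 197 probe sets, against 0.53 for all probe sets, and among bright probe sets it was 0.24, against 0.42. Only 6 of the 197 changed by more than 2-fold in either direction (3.05%), against 25.3% of all probe sets. Among bright probe sets the shares were 1.26% and 16.4%. The 95% interval of the change lay within 2-fold either way for 146 of the 197 (74.1%), against 29.0% of all probe sets, and for 132 of the 159 bright ones (83.0%), against 54.2%.

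**Figure D3:**
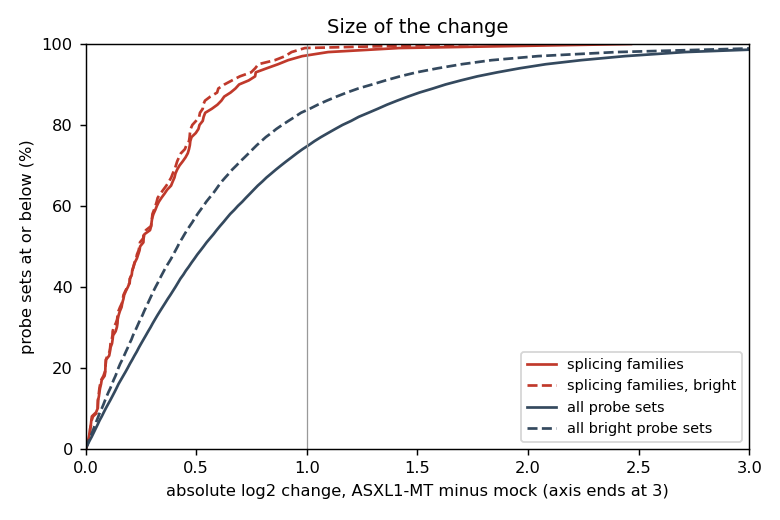
The curves give the percent of probe sets (vertical axis) whose absolute log2 change is at or below the value on the horizontal axis, for the splicing families (red) and all probe sets (dark), with dashed curves for bright probe sets. The red curves lie above the dark ones, with medians of 0.25 and 0.53.

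Marker genes of some other cell populations also differed between the same groups. Of all genes, 6.63% rose and 4.75% fell. Genes of mature neutrophils were lower in 10 of 17 and higher in 0, with list means of -0.82, -0.66 and -0.90 on ASXL1-MT arrays, against 0.65, 0.65 and 0.73 on mock arrays. Stem and progenitor genes rose in 8 of 18 and fell in 2, with a median change of 1.10, and 10 of 13 genes of MHC class II and dendritic cells rose, with a median of 2.28. Of 25 proliferation genes 2 rose, which is near the share of all genes, and 23 had a positive change, with a median of 0.32. Their list means were 0.11, 0.20 and 0.14 on ASXL1-MT arrays, against -0.21, -0.24 and -0.12 on mock arrays. The lists for the depleted lineages had 1 gene each that rose, of 8 for T cells, 9 for B cells and 7 for red cells. Such counts are too few to set against the share of all genes. The median changes of these lists were -0.23, -0.47 and 1.68, and 3, 2 and 7 of their genes had a positive change. Red cell list means were 1.88, 0.79 and 0.28 on ASXL1-MT arrays, against -1.04, -1.07 and -0.45 on mock arrays. The part of these populations in the splicing values was not tested.

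The Snrp genes encode proteins of the U1, U2, U4 and U5 particles. Snrpa1, which encodes protein A′ of the U2 snRNP, rose by 1 probe set of 3. Probe set 1417352_s_at had 0.37, 0.42 and 0.28 on ASXL1-MT arrays, against -0.50, -0.39 and -0.28 on mock arrays, a change of 0.75 (SE 0.14, adjusted p = 0.0423 by limma, 1.68-fold). The groups were well apart, but with any single array left out the adjusted p lay between 0.0916 and 0.140, and equal array medians gave 0.0560. The other Snrpa1 probe sets changed by 0.53 and 0.42, in the same direction. Sm proteins form the ring around the U snRNAs, and 5 of its 7 genes were measured, Snrpb, Snrpd3, Snrpe, Snrpf and Snrpg. All 5 had a positive change, with a median of 0.36, and in 3 the groups did not overlap (23.5% of all genes are higher without overlap), but 0 passed the test over all genes. Snrpf had 0.26, 0.55 and 0.22 on ASXL1-MT arrays, against -0.24, -0.22 and -0.38 on mock arrays, a change of 0.62 (95% interval 0.21 to 1.04, adjusted p = 0.0825). Snrpe lay near 0, at 0.061. Snrpb2, the U2B″ protein, was divided, with changes of 0.45, 0.12 and -0.62 for its 3 probe sets, the last of them not bright. Snrpc, of the U1 particle, and Snrpn, an imprinted Sm gene, had no bright probe set, and their gene intervals ran from -0.47 to 1.25 and from -0.91 to 1.84.

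The 3 subunits of SF3A bridge the U2 core and SF3B. Sf3a3 was higher without overlap by both probe sets, with changes of 0.48 and 0.45, and both passed in the fit to bright probe sets (adjusted p = 0.0320 and 0.0165). Sf3a2 was also higher without overlap by both, at 0.22 and 0.46, and neither passed. The probe sets of Sf3a1 differed in direction. Its probe set 1449333_at had 0.20, 0.36 and 0.31 on ASXL1-MT arrays, against -0.25, -0.22 and -0.20 on mock arrays (change 0.51, adjusted p = 0.0844), whereas its 3 others changed by 0.37, -0.16 and -0.63, so that the gene mean changed by 0.024.

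Sf3b had 12 probe sets with a positive and 10 with a negative change, and 0 passed over all probe sets. SF3B1, the subunit that clamps the branch site, is the most often mutated splicing gene in human myelodysplastic syndrome. Sf3b1 was measured by 4 bright probe sets, which changed by 0.17, 0.0028, -0.14 and -0.26. Their 95% intervals ran from -0.17 to 0.50, -0.36 to 0.37, -0.54 to 0.25 and -0.62 to 0.096, which leaves out 2-fold changes. As a gene the change was -0.059 (95% interval -0.38 to 0.26). Probe set 1449138_at had -0.049, -0.15 and -0.15 on ASXL1-MT arrays, against 0.049, 0.25 and 0.13 on mock arrays, and 1440818_s_at had 0.094, 0.062 and 0.040, against -0.040, -0.10 and -0.16. Neither overlapped between groups, and they ran in opposite directions, so that no direction can be given for Sf3b1. In the fit to bright probe sets 1449138_at missed the threshold (adjusted p = 0.0770) and passed as lower with array medians set equal (change -0.34, adjusted p = 0.0373). Of the other subunits, Sf3b3 had 1 probe set that passed as higher among bright probe sets, with 0.16, 0.13 and 0.32 on ASXL1-MT arrays, against -0.44, -0.13 and -0.21 on mock arrays (change 0.46, adjusted p = 0.148 over all probe sets). Sf3b2 had 7 probe sets between -0.19 and 0.32. Sf3b4, Sf3b5 and Sf3b6 had gene changes of -0.19, -0.026 and -0.048, all with overlapping groups as genes. Of the 3 probe sets of Sf3b5, 1 was higher without overlap.

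U2AF reads the 3′ splice site, its small subunit U2AF1 the AG dinucleotide and its large subunit U2AF2 the pyrimidine tract before it. All 3 genes had 1 bright probe set each. U2af1 had 0.17, -0.11 and 0.099 on ASXL1-MT arrays, against -0.12, -0.099 and 0.19 on mock arrays, a change of 0.063 (95% interval -0.37 to 0.49, adjusted p = 0.857). The groups overlapped, and the change turned to -0.019 with array medians set equal. U2af2 changed by 0.12 and U2af1l4, a paralog of U2af1, by 0.14, the smallest p of the family (adjusted p = 0.645). The interval of U2af2 ran from -0.41 to 0.66.

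**Figure D4:**
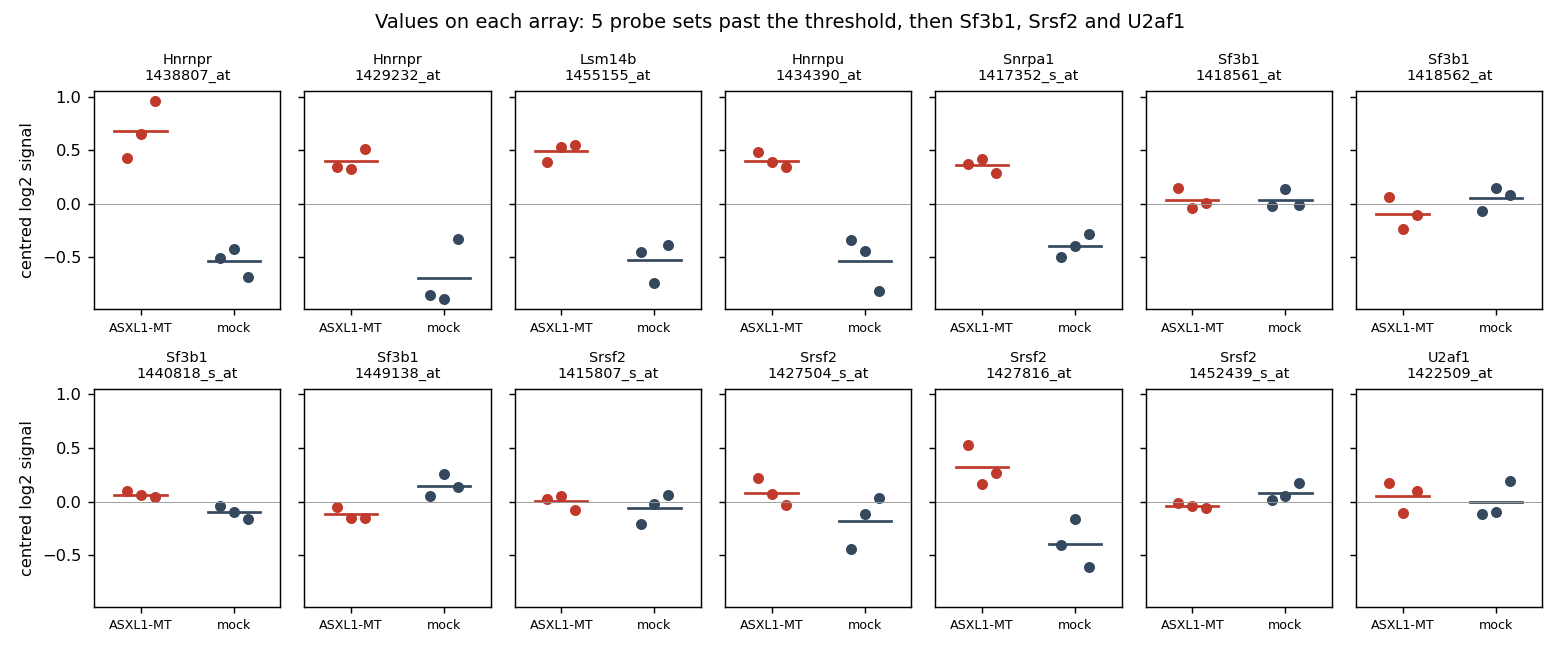
Centred log2 signals on each array (points, ASXL1-MT red and left, mock dark and right) with group means as bars, for the 5 probe sets past the threshold and for each probe set of Sf3b1, Srsf2 and U2af1. In the first 5 panels every ASXL1-MT array lies above every mock array, and the Sf3b1 and U2af1 panels stay within 0.3 of 0.

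Prpf genes are named after yeast precursor RNA processing mutants and act in the tri-snRNP and in later steps. Prpf4b, a kinase that phosphorylates tri-snRNP proteins, was higher without overlap by 5 of 6 probe sets, with changes of 0.43 to 0.77, and all 5 passed in the fit to bright probe sets, while the sixth, which is not bright, changed by -0.025. Probe set 1455696_a_at had 0.26, 0.36 and 0.46 on ASXL1-MT arrays, against -0.26, -0.36 and -0.61 on mock arrays (change 0.77, SE 0.17, adjusted p = 0.0545 over all probe sets). Over all genes Prpf4b missed the threshold, at 0.48 (adjusted p = 0.0689). Prpf3 and Prpf4, proteins of the U4/U6 particle, were higher without overlap as genes, by 0.39 and 0.29. Prpf40b, a homolog of a yeast U1 protein, had a single probe set that is not bright, with 0.21, 0.28 and 0.34 on ASXL1-MT arrays, against -0.26, -0.21 and -0.32 on mock arrays (change 0.54, adjusted p = 0.0742). The core U5 proteins were less clear. Prpf8, at the centre of the active site, changed by 0.21 (95% interval -0.18 to 0.60), and Prpf6 by 0.22 with probe sets at -0.32, -0.0066 and 0.97. Prpf19, the ubiquitin ligase of the complex that stabilises the active spliceosome, had 4 bright probe sets at 0.29 to 0.36 and a dim one at -0.15. Prpf18, Prpf38a, Prpf38b and Prpf39 had gene changes between -0.17 and -0.019, and as genes the groups of all 4 overlapped. The 4 probe sets of Prpf38b ran from -0.31 to 0.40, with 1 higher and 1 lower without overlap. One that was higher, 1 of the 4, passed in the fit to bright probe sets. Of the 3 probe sets of Prpf38a, 1 was lower without overlap.

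LSm proteins form rings like those of the Sm proteins, LSm2 to LSm8 on U6 snRNA and LSm1 to LSm7 on mRNAs bound for decapping. All 6 measured genes of the U6 ring had a positive change, with a median of 0.37. In Lsm2, Lsm3, Lsm4 and Lsm7 the groups did not overlap (23.5% of all genes are higher without overlap), but 0 of 6 passed over all genes. The remaining ring gene, Lsm5, was left out because its probe set also names Gm7846. That probe set ran the other way, with a change of -0.20 (adjusted p = 0.405 by limma over all probe sets). Lsm7 had 0.41, 0.20 and 0.68 on ASXL1-MT arrays, against -0.40, -0.20 and -0.41 on mock arrays (change 0.77, SE 0.19, adjusted p = 0.0697), and Lsm2 0.23, 0.31 and 0.16, against -0.42, -0.16 and -0.28 (change 0.52, adjusted p = 0.103). Both passed in the fit to bright probe sets. Lsm8, the ring member that sets the U6 ring apart, changed by 0.099, and Lsm1, its counterpart in the decapping ring, by 0.39 on its bright probe set and 0.0057 on the other. Lsm14b, a relative of the translational repressor LSM14A that is not part of the spliceosome, was the family's 1 call. It had 0.39, 0.53 and 0.55 on ASXL1-MT arrays, against -0.45, -0.74 and -0.39 on mock arrays, a change of 1.01 (SE 0.17, adjusted p = 0.0314, 2.02-fold). It passed under quantile normalization, cyclic loess and equal medians, and with 1 array left out its adjusted p was 0.0683 to 0.120. Its paralog Lsm14a changed by 0.18, 0.089 and 0.0091 on its bright probe sets, and a dim probe set of it stood at -2.46 with an interval of -6.29 to 1.36. Lsm10 and Lsm11, of the U7 particle that processes histone mRNAs, changed by -0.20 and 0.090, and Lsm12 by -0.23, all with overlap as genes. Of the 3 probe sets of Lsm12, 1 was lower without overlap.

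The Srsf genes encode SR proteins, which bind exonic enhancers. Srsf10, a splicing repressor when dephosphorylated, rose over all genes, by 0.68 (SE 0.14, adjusted p = 0.0385 by limma). The adjusted p was 0.0781 to 0.135 with 1 array left out, and 0.0626, 0.0709 and 0.0552 under quantile normalization, cyclic loess and equal array medians, so that the call was lost in each. As a gene it had 0.21, 0.34 and 0.30 on ASXL1-MT arrays, against -0.37, -0.53 and -0.28 on mock arrays. Its 4 probe sets, all bright and all without overlap, changed by 0.54 to 0.84, and the one with the smallest p, 1418527_a_at, had 0.26, 0.40 and 0.45, against -0.32, -0.51 and -0.26 (change 0.73, adjusted p = 0.0519 over all probe sets). Srsf3, the smallest SR protein, had 4 of 6 probe sets higher without overlap, at 0.50 to 0.90, with 1 more at 0.15 and 1 at -0.39. Srsf1 had 6 of 7 higher without overlap, at 0.30 to 0.91, of which 3 passed in the fit to bright probe sets, and its dim probe set 1457136_at changed by -1.40 (95% interval -2.84 to 0.037). Srsf9 had 0.20, 0.29 and 0.13 on ASXL1-MT arrays, against -0.34, -0.32 and -0.13 on mock arrays (change 0.47, adjusted p = 0.0159 in the fit to bright probe sets). Srsf4, Srsf6 and Srsf11 had gene changes of 0.11, -0.081 and 0.17, and Srsf12 had a single dim probe set with an interval of -3.91 to 2.55.

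Srsf2, whose human gene carries recurrent mutations at a proline residue in myelodysplastic syndrome, was measured by 4 probe sets that did not agree. The dim probe set 1427816_at had 0.53, 0.17 and 0.27 on ASXL1-MT arrays, against -0.40, -0.17 and -0.61 on mock arrays, a change of 0.71 (95% interval 0.22 to 1.20, adjusted p = 0.0898). The groups did not overlap there. The 3 bright probe sets changed by 0.26, 0.057 and -0.12, with intervals of -0.21 to 0.74, -0.32 to 0.44 and -0.46 to 0.22, and 1452439_s_at was lower without overlap. All 3 carry a suffix that the array maker gives to probe sets shared by several transcripts. The change of 1415807_s_at turned negative under all 3 scalings (-0.044 after quantile normalization), so no direction is given for it.

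Srsf5 had the most negative gene change among SR genes with a bright probe set, and it did not pass. Its values were 0.018, -0.64 and -0.68 on ASXL1-MT arrays, against -0.018, 0.13 and 0.20 on mock arrays (change -0.54, 95% interval -1.14 to 0.074, adjusted p = 0.238). ASXL1-MT array 1 stood with the mock arrays and the other ASXL1-MT arrays lay below. The same array stood above both others of its group by more than 0.3 in 26 of 197 splicing probe sets (13.2%), whereas ASXL1-MT arrays 2 and 3 did so in 6 and 7. Over all probe sets the shares for the 3 arrays were 16.2%, 14.8% and 14.4%. Srsf6 1416720_at (0.36, -0.35 and -0.17 on ASXL1-MT arrays, against 0.21, 0.044 and -0.044 on mock arrays) and Hnrnpdl 1449039_a_at (-0.0032, -0.88 and -0.80, against 0.13, 0.19 and 0.0032) also had ASXL1-MT array 1 apart from the others of its group. Without ASXL1-MT array 1 the fit to bright probe sets called 3 of 30 Srsf probe sets lower, against 14.8% of all bright probe sets in that fit, so the share lay below the background.

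The Hnrnp genes encode abundant nuclear RNA-binding proteins. Hnrnpr, which binds mRNA and is close in sequence to Syncrip, also known as hnRNP Q, rose by 2 of 5 probe sets and as a gene (change 0.76, adjusted p = 0.0279, and 0.0642 to 0.110 with 1 array left out). Probe set 1438807_at had 0.43, 0.65 and 0.96 on ASXL1-MT arrays, against -0.50, -0.43 and -0.68 on mock arrays (change 1.22, SE 0.20, adjusted p = 0.0314, 2.32-fold). Probe set 1429232_at had 0.35, 0.33 and 0.51, against -0.85, -0.89 and -0.33 (change 1.09, SE 0.21, adjusted p = 0.0429, 2.12-fold). Neither is bright, so these folds may rest on dimmer signals. The 3 bright probe sets changed less, by 0.68, 0.48 and 0.34, 2 of them passing in the fit to bright probe sets. With 1 array left out, the adjusted p was 0.0532 to 0.106 for 1438807_at and 0.0596 to 0.147 for 1429232_at, and with array medians set equal the second was 0.0535. Hnrnpu, a nuclear scaffold protein that binds RNA and chromatin, rose by 1 of 5 probe sets. Its probe set 1434390_at had 0.49, 0.39 and 0.34 on ASXL1-MT arrays, against -0.34, -0.44 and -0.81 on mock arrays (change 0.93, SE 0.18, adjusted p = 0.0443, 1.91-fold). The others changed by 0.47, 0.30, 0.027 and -0.025, the gene did not pass (0.34, adjusted p = 0.136), and the call was lost with any array left out (adjusted p 0.0817 to 0.139) and with array medians set equal (adjusted p = 0.0544).

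**Figure D5:**
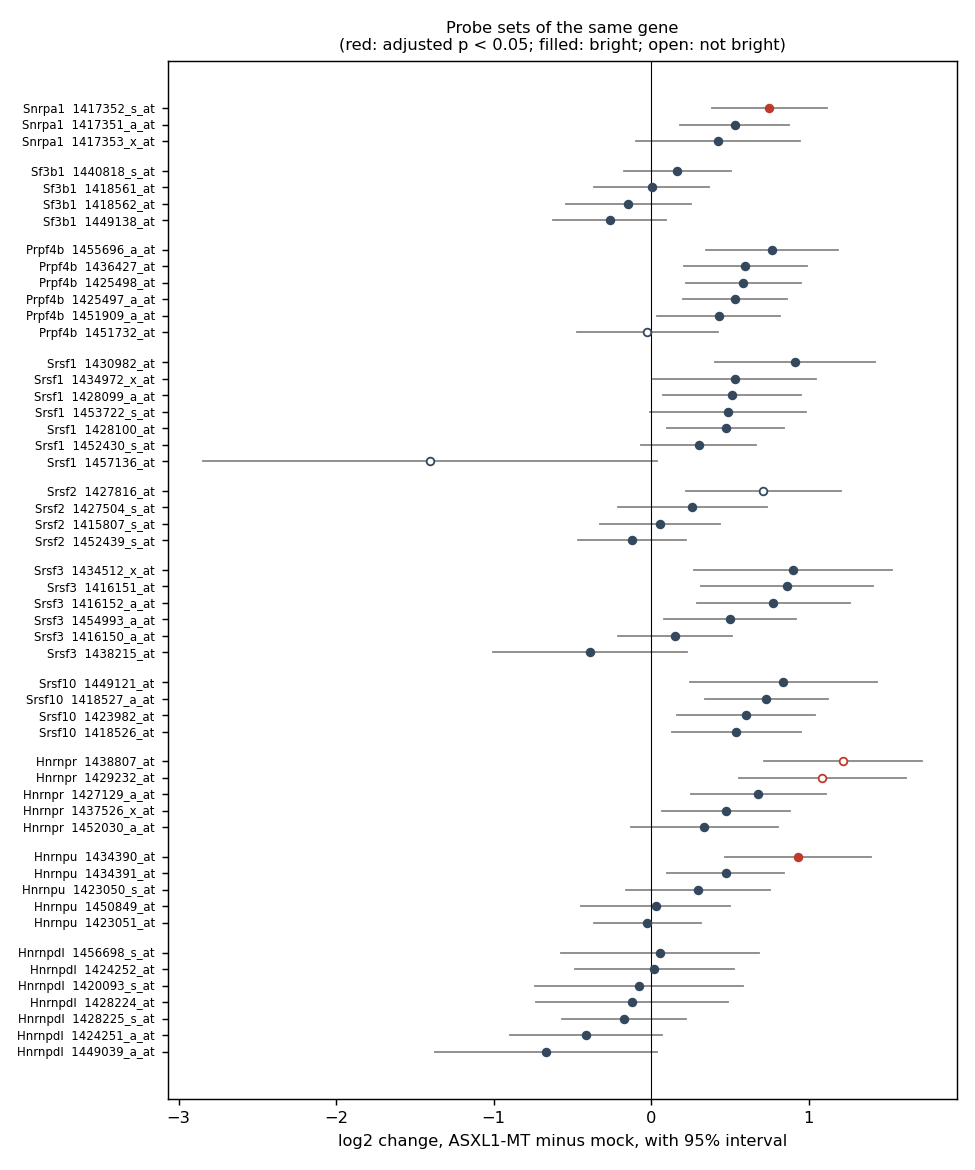
Change of every probe set (points, log2 scale, ASXL1-MT minus mock) with its 95% interval for 10 splicing genes, filled where the probe set is bright and red where it passed over all probe sets. All probe sets of Snrpa1, Srsf10 and Hnrnpr lie above 0. Sf3b1, Prpf4b, Srsf1, Srsf2, Srsf3, Hnrnpu and Hnrnpdl hold probe sets on both sides of 0.

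Hnrnpll, which regulates alternative splicing of the Cd45 phosphatase gene in lymphocytes, gave the 2 lower calls among bright probe sets. Its probe set 1427144_at had -0.65, -0.059 and -0.48 on ASXL1-MT arrays, against 0.45, 0.059 and 0.23 on mock arrays, and 1425255_s_at had -0.73, -0.10 and -0.50, against 0.21, 0.14 and 0.10. The changes were -0.64 and -0.59 (adjusted p = 0.0411 and 0.0402 in that fit, 0.146 and 0.149 over all probe sets). Hnrnpl, its paralog, changed by -0.012 on probe set 1424101_at (95% interval -0.39 to 0.36), and 1445594_at was too variable to use (-3.11, 0.29 and -1.75 on ASXL1-MT arrays, against 0.45, -0.29 and 0.59 on mock arrays). Hnrnpdl, a paralog of the AU-rich binder Hnrnpd, had 2 of 7 probe sets lower without overlap and 5 with overlap. Hnrnph3 had 1 probe set, with 0.040, 0.64 and 0.45 on ASXL1-MT arrays, against -0.041, -0.43 and -0.040 on mock arrays (change 0.55, adjusted p = 0.212). The gene changes of Hnrnpa0, Hnrnpa1, Hnrnpa2b1, Hnrnpab, Hnrnpc, Hnrnpd, Hnrnpf, Hnrnpk and Hnrnpm, among them abundant hnRNPs of most cells, lay between -0.099 and 0.20, and 0 of these 9 passed. With array medians set equal, Hnrnpc, which binds uridine tracts, passed as lower among bright probe sets by 1418693_at (change -0.33, adjusted p = 0.0348), as did Hnrnph2 by 1415963_at (change -0.32, adjusted p = 0.0407).

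In all, 49 of the 74 genes had more than 1 probe set, and in 28 these lay on both sides of 0. Of the 197 probe sets 45 carry a suffix for possible matches to other transcripts. With all such probe sets of the array left out 3 of 152 rose (1.97%) and 0 fell. In that fit 4.02% of all probe sets rose and 2.98% fell.

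Splicing genes outside these symbols were taken from 8 lists of the spliceosome's other parts. Of their 159 measured genes 8 rose and 2 fell, with a median change of 0.10, against a background of 6.63% and 4.75%. The balance depended on the scaling, with 7 higher and 6 lower after quantile normalization, 7 and 5 after cyclic loess, and 7 and 5 with array medians set equal. No gene passed among 11 of the U5 particle and tri-snRNP, 18 partners of U1 and U2 and 8 of the exon junction complex. Among 17 genes of snRNP assembly, which takes in the SMN complex that loads Sm rings onto snRNAs, Gemin8, an SMN complex subunit, and Tgs1, the enzyme that caps snRNAs with trimethylguanosine, rose, and 15 of the 17 had a positive change. Gemin8 had 0.45, 0.61 and 0.83 on ASXL1-MT arrays, against -0.44, -1.05 and -0.90 on mock arrays (change 1.43, adjusted p = 0.0212), and Tgs1 0.31, 0.35 and 0.55, against -0.25, -0.46 and -0.35 (change 0.76, adjusted p = 0.0332). Both were clear of overlap. The value of Gemin8 is a mean of 3 probe sets, and on the 1 that is bright the change was 0.80. Snrnp48, of the minor spliceosome that removes the rare U12-type introns, rose by 0.63 (SE 0.12, adjusted p = 0.0352), alone among 8 genes, and missed the threshold under quantile normalization, cyclic loess and equal array medians (adjusted p = 0.0572, 0.0629 and 0.0521 by limma) and with shared-transcript suffixes left out (0.0555). Dhx32, a helicase-like protein listed with the catalytic step factors, rose by 1.72 (adjusted p = 0.0319), alone among 27, and on the 1 of its 2 probe sets that is bright the change was 1.04.

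Among 21 SR-like factors and SR kinases 0 rose and Srpk2 fell. Srpk2, a kinase that phosphorylates SR proteins, had -0.35, -0.28 and -0.44 on ASXL1-MT arrays, against 0.59, 0.49 and 0.30 on mock arrays (change -0.81, SE 0.14, adjusted p = 0.0283). Of 49 regulators of alternative splicing 4 rose and 1 fell. Celf4 had 1.34, 1.65 and 1.89 on ASXL1-MT arrays, against -1.59, -4.14 and -2.14 on mock arrays (change 4.26, adjusted p = 0.0238), with 1 of 3 probe sets bright, and Khdrbs3, whose 1 probe set is not bright, 0.81, 0.90 and 0.38, against -0.38, -0.82 and -1.01 (change 1.43, adjusted p = 0.0261). The others, named after their values were seen, were Tia1 at 1.38 and Fubp3 at 1.08, and Mbnl3, a muscleblind protein, which fell by 0.64 on the log2 scale. With 1 array left out, the calls over the 8 lists, 10 with all arrays, numbered 4 without ASXL1-MT array 1, 3 without mock array 1, 1 without mock array 2 and 0 without each of the other 3.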

How the data were processed

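The deposited values were MAS5 signals per the submitters' processing notes, given as log values that were taken here as log2 and were centred by probe set (row medians within 5e-07 of 0). The authors' log base, centring and scaling are not given in the sources used here. Groups and array numbers came from the sample titles. The splicing genes and all lists were chosen with earlier results of these data known. Symbols came from the platform annotation, and all 74 genes matched a RefSeq gene of assembly GRCm38.p6 by gene ID. Bright probe sets had their 3 highest values on whole multiples of the rounding step with 20 binary places, within 0.1 of a step.

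All 45037 probe sets of the 6 arrays entered a linear model with group as the only term (limma 3.58.1, lmFit and eBayes, R 4.3.3, two-sided). Benjamini-Hochberg adjustment ran over all of them, with a threshold of 0.05, and the script was tested on simulated data. Gene values were means over probe sets. Named were all probe sets of the 4 singled-out genes, up to 4 genes per family past the threshold, with the smallest-p gene in families that had none, and up to 2 genes per other list. Further genes are named by their probe sets' counts and ranges, after their values were seen. Alternatives were quantile normalization, cyclic loess, equal array medians, robust eBayes, bright probe sets alone, tied values or shared-transcript suffixes left out, a block by array number, and each array left out. The number of arrays limits the precision.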

Additional observations from a re-analysis of the deposited data

How the results depend on the processing

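The calls among the 197 splicing probe sets, 5 as deposited, numbered 2 under each of quantile normalization, cyclic loess and equal array medians, all higher. That was 1.02% each time, against 3.89%, 3.61% and 3.85% of all probe sets higher and 4.23%, 4.21% and 3.86% lower. Robust eBayes gave 3, all higher (1.52%), against 4.05% higher and 2.92% lower. With shared-transcript suffixes left out 3 passed, all higher (1.97%, against 4.02%). Among bright probe sets alone 40 of 159 passed, 38 higher and 2 lower, against 23.6% and 15.8%. With any array left out the calls among the 197 numbered 0 to 0. The 3 gene calls became 19 among bright probe sets, 11 when the least variable probe set stood for each gene, and 0 to 0 with an array left out. The 10 calls in other splicing lists became 52 of 143 genes among bright probe sets, 35 higher (24.5%) and 17 lower. Of all genes with bright probe sets 27.6% were higher and 16.2% lower. With the least variable probe sets there were 33 calls, 22 higher (13.8%) and 11 lower, against 13.5% and 7.89% of all genes. With an array left out there were 0 to 4 calls, when 0.401% to 2.8% of all genes rose and 0.654% to 2.88% fell. Under quantile normalization, cyclic loess and equal medians the calls in other splicing lists were 7 higher and 6 lower, 7 and 5, and 7 and 5. Among bright probe sets alone, leaving out an array, chosen after seeing the data, gave 16 to 35 calls, with 23 without ASXL1-MT array 2 and 16 without ASXL1-MT array 3. The median change of the 197 was 0.056, 0.041 and 0.064 under the 3 scalings, against 0.016, 0.0037 and 0.024 for all probe sets, and 0.13 to 0.18 with an array left out. Deviations of same-numbered arrays from their group means did not correlate (-0.00882, -0.0116 and -0.00903). Paired samples need not share such deviations, so it stays unknown whether the array numbers pair the samples. With a replicate block 0 splicing probe sets, 0 splicing genes and 0 genes of other lists passed (0 of all probe sets), with 23 splicing probe sets higher and 0 lower at an unadjusted p under 0.05. Changes near 0 turned sign. Sf3b1 1418561_at became -0.083, -0.086 and -0.079 under quantile normalization, cyclic loess and equal medians, and -0.050, -0.024 and -0.019 without ASXL1-MT array 1, mock array 1 and mock array 3, in a range of -0.050 to 0.052 over arrays left out. Srsf2 1415807_s_at became -0.044, -0.063 and -0.024 under the 3 scalings and -0.020 without mock array 1 (range -0.020 to 0.12), and U2af1 became -0.040, -0.030 and -0.019 under the scalings. The fits with an array left out or a block hold fewer degrees of freedom by construction, and for the other changes the cause was not tested. Without absolute levels, dim signals could be told from bright ones only through the rounding step.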
